A study of Homo sapiens with 6 samples.

Results

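The genes described here are 10 components and readouts of bone morphogenetic protein (BMP) signalling: the ID genes ID1, ID2, ID3 and ID4, the SMAD genes SMAD6, SMAD7 and SMAD9, the ligand BMP4, the receptor BMPR1A and the decoy receptor BAMBI. They were taken by symbol from a table of 20036 genes, and all 10 were present. The list was chosen by the fold changes of ID2 and ID3, which were much lower in the knockdown libraries, and ID4 and BAMBI were too low to be tested. The differences of the 10 genes between the groups are therefore given as a description, with a standard error and no p-value, and whether a gene passed the threshold is stated only to describe it. The RNA came from PANC-1, a widely used line of human pancreatic tumour cells. In 3 libraries the cells carried a lentivirus that knocks down SHMT2, the mitochondrial serine hydroxymethyltransferase. In 3 control libraries they had received a null virus. The sources used here do not give the hairpin, the time after infection or the number of cell clones. Nor do they say whether replicates came from separate cultures, so every spread and p-value covers these libraries alone and may be technical.

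BMPs are secreted ligands that bind paired type I and type II serine/threonine kinase receptors. The active type I receptor phosphorylates SMAD1, SMAD5 and SMAD9, which enter the nucleus with SMAD4 and switch on target genes. The ID genes are among the best known of these targets in many cell types. ID proteins have a helix-loop-helix domain but no DNA-binding region, and they hold basic helix-loop-helix (bHLH) factors such as the E proteins in inactive pairs. SMAD6, SMAD7 and BAMBI act as feedback inhibitors of the pathway.

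Library totals ran from 15405884 to 19075734 counts. SHMT2 had 139, 56 and 101 counts in knockdown replicates 1, 2 and 3, against 2113, 2284 and 2417 counts in control replicates 1, 2 and 3. A pair of libraries, knockdown replicate 2 and control replicate 1, stood apart within their groups. The chi-square of counts per gene was 70.7 and 72.3 between knockdown replicate 2 and the other knockdown libraries, and 2.40 between those. It was 24.6 and 29.4 between control replicate 1 and the other control libraries, and 2.04 between those. Knockdown replicate 2 also had 10.4% of its counts in mitochondrially encoded genes, while replicates 1 and 3 had 4.72% each, against 5.78% to 6.86% among control libraries. Of 6 epithelial markers, which a pancreatic tumour line should express, 3 were called higher and 1 lower. Over all genes tested, 26.7% were called higher and 25.1% lower. KRT19 passed the filter on low counts only through the knockdown libraries, and CDH1 had just 9 to 23 counts in the controls. Nothing is read from either call. The summed level of the 6 was 1730 to 2230 CPM in knockdown and 1160 to 1510 CPM in control libraries (CPM, counts relative to the library total, scaled with TMM factors). Nearly all of the sum came from KRT8 and KRT18. KRT19 averaged 30.9 FPKM in knockdown and 0.0634 FPKM in control libraries, and CDH1 0.671 FPKM in knockdown and 0.15 FPKM in control libraries. EPCAM averaged 2.93 FPKM in knockdown and 7.23 FPKM in control libraries, and KRT7 0.386 FPKM in knockdown and 0.266 FPKM in control libraries. KRT19, CDH1 and KRT7 were thus low in the control libraries. Markers of other cell types gave low sums. The 4 endothelial markers summed to 5.81 to 7.25 CPM in knockdown and 0.441 to 0.601 CPM in control libraries, nearly all from KDR. The 5 immune markers summed to 2.26 to 3.11 CPM in knockdown and 0.802 to 1.84 CPM in control libraries, mostly from CD14, and LYZ was at 0. The 6 fibroblast markers summed to 42.2 to 47.5 CPM in knockdown and 78.6 to 92.3 CPM in control libraries, nearly all from COL1A1, and COL1A2 and DCN were at 0. The 5 acinar and endocrine markers had at most 4 counts in any library, and PRSS1, CPA1 and INS were at 0. The part of these differences in the results below was not tested.

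Of the 10 genes, 8 passed the filter on low counts. ID1, ID2 and ID3 were called lower and BMP4 higher at an adjusted p of 0.05 in edgeR's quasi-likelihood test, and BMPR1A, SMAD6, SMAD7 and SMAD9 were not called. Over all 12292 genes tested, 51.8% were called, 25.1% as lower and 26.7% as higher. The CPM of 6 of the 8 did not overlap between the groups, 4 lower and 2 higher, against 61.4% of all genes tested (30.2% lower, 31.3% higher). Since ID2 and ID3 chose the list, and BMP4 passed the filter only through the knockdown libraries, nothing is read from these counts. The median log2 fold change of the 8 genes was -0.41, against 0.00 over all genes tested. Since the 8 include ID2, ID3 and BMP4, nothing is read from this median either. RNA was taken from whole cultures, where fewer cells expressing a gene and less of its RNA per cell cannot be told apart.

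**Figure D1:**
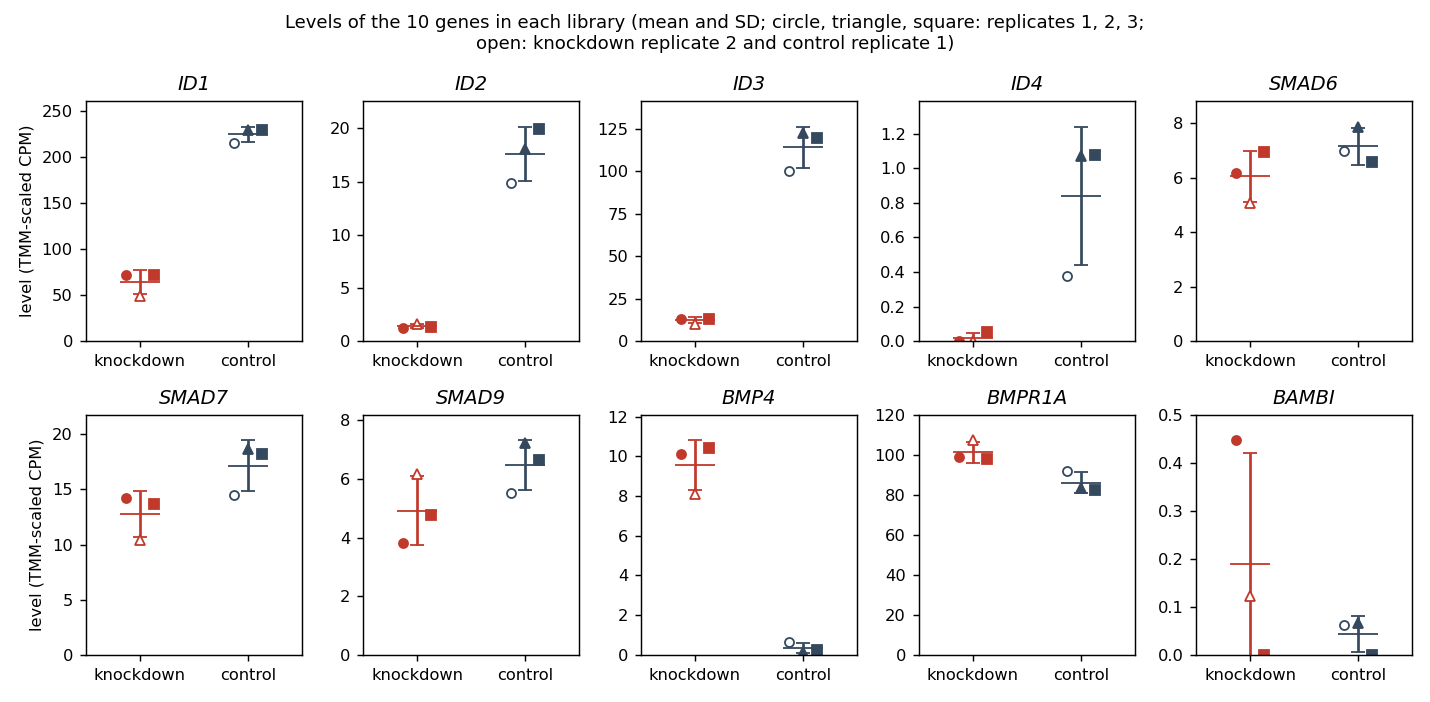
Levels of the 10 genes in each library, in TMM-scaled CPM on linear axes that start at 0, with knockdown libraries in red and control libraries in blue. Horizontal bars and whiskers are the mean and SD (n = 3 each), and open symbols are the libraries that stood apart. ID2, ID3 and ID4 sit near the floor of their panels in the knockdown libraries, and BMP4 does so in the control libraries.

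ID1, ID2 and ID3 were lower together, and the DNA before their RefSeq starts (GRCh38.p14) was read for short motifs. The window ran from 250 to 11 bases before the start, which leaves out distal elements. SMAD proteins can bind GTCT, whose reverse complement is AGAC, and a GC-rich box with the letters GGCGCC. MYC binds the E-box CACGTG, and E proteins bind the wider E-box CANNTG, which includes it. Both strands were searched. GGCGCC was in none of the windows of the 4 ID genes and in 15.5% of all 35116 RefSeq windows of that kind. The letters CACGTG were likewise in none of the 4, and in 6.0% of all. CANNTG was in those of ID2 and ID4, and in 60.6% of all. GTCT or AGAC occurred in all 4, as in 76.2% of all windows. ID1, ID2 and ID3 each had a GTCT followed by an AGAC with at most 22 bases between. That arrangement was noticed in these windows and then counted, with the limit of 22 set by the ID1 gap. Of all windows 4.6% hold it, a share that depends on that limit, so it gets no test. The 30-base stretches that hold it in these 3 windows are shown, 5′ to 3′ on the gene's strand, with the GTCT and AGAC in capitals.
ID1: GTCTttccacactgcgagcaggcactAGAC
ID2: cgcccgctcGTCTtgatAGACgtgccacct
ID3: ctccgcgGTCTtcggcgtcAGACcagccgg
They lie at chr20:31605127-31605156 (plus strand), chr2:8681944-8681973 (plus strand) and chr1:23559637-23559666 (minus strand), with 22, 4 and 8 bases between GTCT and AGAC. The RefSeq start of ID2, 8682056, lies within the span counted for the gene in the deposited table, which begins at 8678845. In GENCODE 29, longer transcripts of ID2 and ID3 place exon over most or all of their windows, while the ID1 window holds no ID1 exon. The ID1 window, chr20:31605039-31605278 on the plus strand, is shown whole, with each GTCT and AGAC in capitals.
ID1 window: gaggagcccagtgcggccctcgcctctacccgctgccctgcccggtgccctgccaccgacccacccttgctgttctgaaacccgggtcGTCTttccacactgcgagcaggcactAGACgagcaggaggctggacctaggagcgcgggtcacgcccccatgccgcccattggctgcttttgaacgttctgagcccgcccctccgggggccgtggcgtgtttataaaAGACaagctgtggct
A match of letters is not a binding site, and no factor's binding was measured here.

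ID1 (ENSG00000125968, chromosome 20, 31605283 to 31606515, plus strand) was the most abundant ID gene in both groups. It had 1444, 809 and 1376 counts in knockdown replicates 1, 2 and 3, against 3407, 3427 and 3627 counts in control replicates 1, 2 and 3. Every knockdown library lay below every control library, and the lowest was knockdown replicate 2. The level averaged 64.1 ± 12.8 CPM in knockdown and 224 ± 8.53 CPM in control libraries (SD, n = 3 each). The log2 fold change was -1.80 (SE 0.15), which left 28.6% of the control mean, and it was -1.68 without knockdown replicate 2 and control replicate 1.

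ID2 (ENSG00000115738, chromosome 2, 8678845 to 8684461, plus strand) had the lowest fold change of the 8 tested genes. It had 25, 26 and 26 counts in the knockdown replicates and 236, 270 and 315 counts in the control replicates. The knockdown libraries hardly differed from each other, and the groups were far apart. The level averaged 1.39 ± 0.178 CPM in knockdown and 17.6 ± 2.57 CPM in control libraries (SD, n = 3 each), so that 7.91% of the control mean remained. The log2 fold change of -3.66 (SE 0.18) was the 24th lowest of the 12292 tested, and it was -3.86 without the libraries that stood apart.

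ID3 (ENSG00000117318, chromosome 1, 23557926 to 23559501, minus strand) had 267, 165 and 252 counts in the knockdown replicates and 1589, 1832 and 1889 counts in the control replicates. The groups did not overlap, and knockdown replicate 2 was again the lowest library. ID3 averaged 12.1 ± 1.78 CPM in knockdown and 114 ± 12.2 CPM in control libraries (SD, n = 3 each), 10.6% of the control mean. Its log2 fold change of -3.23 (SE 0.14) ranked 38th from the lowest, and it was -3.20 without the libraries that stood apart. ID1, with the smaller fold, ranked 161st.

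ID4 (ENSG00000172201, chromosome 6, 19837370 to 19842197, plus strand) was too low for the filter. It had 0, 0 and 1 counts in the knockdown replicates and 6, 16 and 17 counts in the control replicates. All knockdown libraries were thus at or next to 0, and control replicate 1 was the lowest control. Its summed counts, 1 in knockdown and 39 in control libraries, gave a depth-scaled ratio of 0.0214 (exact 95% interval 0.000529 to 0.127, for counting error only).

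Levels of different genes were compared per length, in the deposited FPKM (counts divided by gene length and by the library total). The summed FPKM of the 4 ID genes was 71.3, 46.5 and 70.8 in knockdown replicates 1, 2 and 3, against 242, 268 and 266 in control replicates 1, 2 and 3. The knockdown mean of 62.9 ± 14.2 was 24.3% of the control mean of 259 ± 14.5 (SD, n = 3 each). The makeup of the sum differed as well. ID1 supplied 84.3% to 86.1% of it in knockdown and 67.3% to 70.2% in control libraries. ID3 supplied 13% to 14.2% in knockdown and 27% to 29.7% in control libraries, and ID2 supplied 0.83% to 1.51% in knockdown and 2.71% to 3.27% in control libraries. ID1 RNA thus remained the main ID transcript, and the shares of ID2 and ID3 in the knockdown libraries lay below all control libraries.

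**Figure D2:**
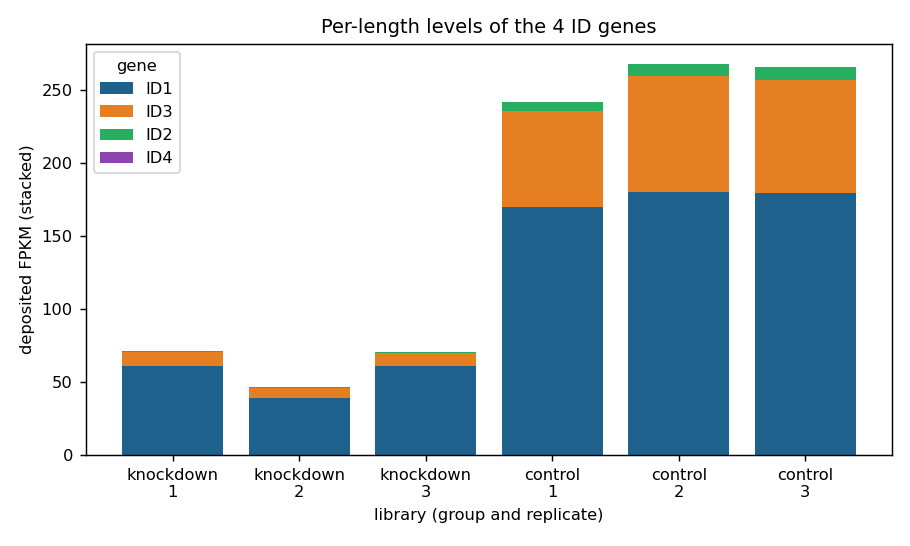
Stacked bars of deposited FPKM for the 4 ID genes in each library, knockdown libraries on the left and control libraries on the right. The sums are 46.5 to 71.3 in knockdown and 242 to 268 in control libraries, with ID1 as the main part of every bar and ID4 too low to be seen.

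The ligand BMP4 went the other way. BMP4 (ENSG00000125378, chromosome 14, 53949736 to 53958761, minus strand) had 204, 133 and 201 counts in the knockdown replicates and 10, 2 and 4 counts in the control replicates. It was readily detected in every knockdown library and close to 0 in the controls, where replicate 1 was the highest. Its level averaged 9.56 ± 1.25 CPM in knockdown and 0.339 ± 0.259 CPM in control libraries (SD, n = 3 each). The ratio of summed counts, scaled for depth, was 28.1 (exact 95% interval 17.2 to 49.5, for counting error only). The log2 fold change was 4.78 (SE 0.35), the 54th highest of the genes tested. It rests on few control counts and was 5.56 without control replicate 1, and 5.67 without that library and knockdown replicate 2.

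BMPR1A (ENSG00000107779, chromosome 10, 86756601 to 86932825, plus strand), a type I receptor for BMP2 and BMP4, had 1993, 1758 and 1890 counts in the knockdown replicates and 1465, 1253 and 1308 counts in the control replicates. On the scaled level it averaged 101 ± 5.19 CPM in knockdown and 86.2 ± 5.21 CPM in control libraries (SD, n = 3 each). The groups did not overlap, and the log2 fold change of 0.23 (SE 0.09) was not called. It was called when control replicate 1 was left out (0.28), when both libraries that stood apart were left out (0.25), and with scaling by library size alone (0.31).

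SMAD9, a signal-carrying SMAD of the BMP branch (ENSG00000120693, chromosome 13, 36844831 to 36920765, minus strand), had 77, 101 and 92 counts in the knockdown replicates and 88, 108 and 105 counts in the control replicates. It averaged 4.92 ± 1.18 CPM in knockdown and 6.47 ± 0.852 CPM in control libraries (SD, n = 3 each), and the groups overlapped. Knockdown replicate 2 was the highest of its group. The log2 fold change of -0.40 (SE 0.21) was not called, and it was -0.60 and called without that library, and -0.69 and called without control replicate 1 as well. Without knockdown replicate 1 it was -0.24 and not called.

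SMAD6, which blocks BMP receptors and SMAD complexes (ENSG00000137834, chromosome 15, 66702236 to 66782849, plus strand), had 124, 83 and 134 counts in the knockdown replicates and 111, 118 and 104 counts in the control replicates. The groups overlapped, and the log2 fold change of -0.23 (SE 0.16) was not called, with values between -0.34 and -0.14 when single libraries were left out. SMAD7, an inhibitor of both BMP and TGF-beta receptors (ENSG00000101665, chromosome 18, 48919853 to 48950965, minus strand), had 287, 170 and 265 counts in the knockdown replicates and 230, 280 and 288 counts in the control replicates. Scaled for depth it averaged 12.8 ± 2.10 CPM in knockdown and 17.1 ± 2.31 CPM in control libraries (SD, n = 3 each), without overlap. That gap was narrow, 14.26 CPM in knockdown replicate 1 against 14.48 CPM in control replicate 1. In FPKM the groups overlapped, with 3.81 in knockdown replicate 1 and 3.59 in control replicate 1. Its log2 fold change of -0.42 (SE 0.16) was not called. It was called without control replicate 1 (-0.53), without both libraries that stood apart (-0.40) and by DESeq2 (-0.42). SMAD6 and SMAD7 are both BMP targets in many cells.

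BAMBI, a receptor-like protein without a kinase domain (ENSG00000095739, chromosome 10, 28677510 to 28682932, plus strand), was barely detected. It had 9, 2 and 0 counts in the knockdown replicates and 1, 1 and 0 counts in the control replicates. Most of its knockdown counts came from replicate 1. The depth-scaled ratio of summed counts was 4.6 (exact 95% interval 1.0 to 42.7, for counting error only), and no difference could be read at this depth.

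In the order of FPKM, ID1 came first in both groups, at 53.8 ± 12.7 in knockdown and 177 ± 5.84 in control libraries (SD, n = 3 each). In the knockdown libraries BMPR1A (10.9), ID3 (8.38), SMAD7 (3.35), BMP4 (3.19), SMAD9 (0.862), SMAD6 (0.731), ID2 (0.645), BAMBI (0.0921) and ID4 (0.0047) followed in mean FPKM. In the control libraries ID3 (74.0), BMPR1A (8.80), ID2 (7.73), SMAD7 (4.22), SMAD9 (1.08), SMAD6 (0.812), ID4 (0.211), BMP4 (0.107) and BAMBI (0.0197) followed in mean FPKM. Neighbours with overlapping ranges were, in knockdown libraries, SMAD7 and BMP4, then SMAD9, SMAD6 and ID2, and BAMBI and ID4. In control libraries they were BMPR1A and ID2, and ID4 and BMP4. Mean FPKM of ID2 thus ranked just below BMPR1A in control libraries and just below SMAD9 and SMAD6 in knockdown libraries, with overlapping ranges.

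**Figure D3:**
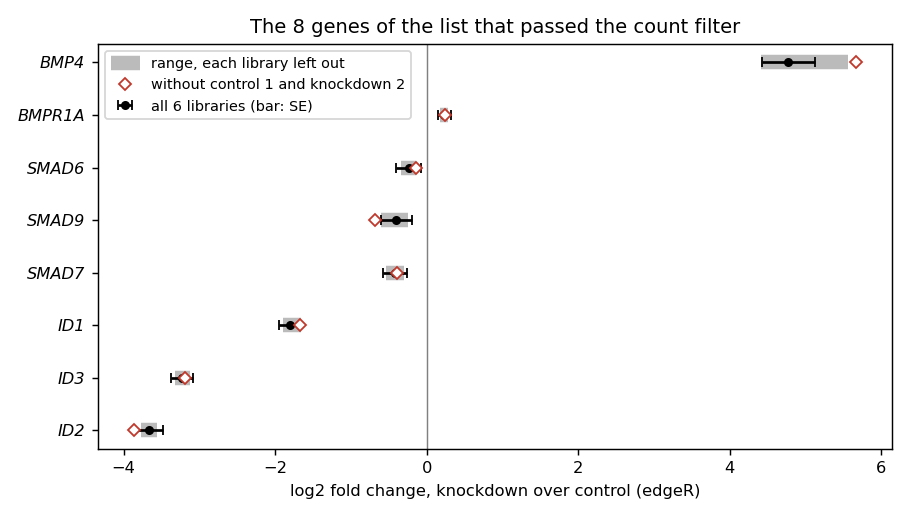
Log2 fold change of the 8 genes past the count filter, knockdown over control, from edgeR, with the SE as a black bar. Grey bands give the range when each library was left out in turn, and open diamonds the value without control replicate 1 and knockdown replicate 2. BMP4, ID1, ID2 and ID3 lie far from 0 in every setting shown.

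The spans of the 10 genes overlapped no other gene of the table on either strand. The 3 nearest tested genes on each side of ID2 and ID3 are given as context. The nearest tested neighbour of ID2, KIDINS220, with 42.2 kb between the start coordinates, had a log2 fold change of -0.03 (SE 0.20). Its direction was not stable: it ran from -0.18 to 0.26 with single libraries left out, and was 0.20 and called higher without both libraries that stood apart (adjusted p = 0.00147 in edgeR). The other 5 around ID2 lay between -0.67 (RNASEH1) and 0.69 (ASAP2). Those on the lower-coordinate side were distant, with 1761 kb (RNF144A) to 5137 kb (RNASEH1) between the starts. The nearest of ID3, the cell cycle factor E2F2, with 51.5 kb between the start coordinates, fell by 1.49 on the log2 scale (SE 0.11, adjusted p = 6.03e-05 in edgeR). The other 5 around ID3 lay between -0.63 (ELOA) and 0.71 (TCEA3). ID2 and ID3 were chosen for their low values, so no comparison with these neighbours is drawn.

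**Figure D4:**
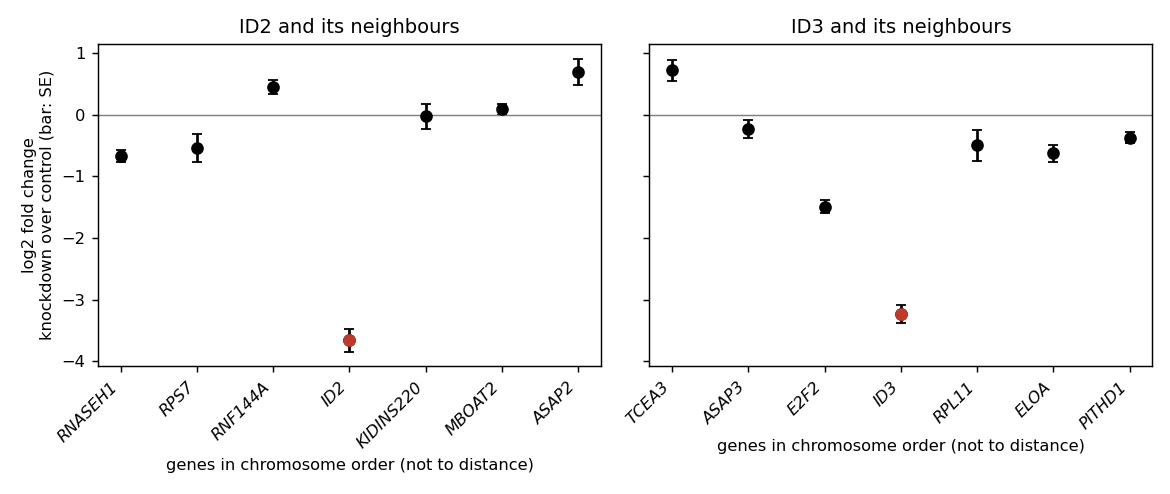
Log2 fold change (knockdown over control, edgeR, bars are SE) of ID2 and ID3, in red, and of the 3 nearest tested genes on each side in chromosome order. ID2 at -3.66 and ID3 at -3.23 are the values that chose the list, and E2F2 at -1.49 is the lowest of the neighbours.

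Genes with the pattern most like that of ID2 over the 6 libraries were LRRC15, CD24, SCARA3, FZD8 and TMCC3, with root mean square differences of 0.12, 0.14, 0.16, 0.18 and 0.24 in centred log2(CPM + 0.5). Those most like ID3 were TMEM98, KLHL13, SCARA3, the type I BMP receptor BMPR1B and LRRC15, at 0.17, 0.18, 0.20, 0.21 and 0.21. SCARA3 and LRRC15 were near both. The 6 libraries fall into 2 groups, so these likenesses are a description and carry no test.

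The rest of the pathway was described with 7 lists of 96 further genes, none of them among the 10. Of these, 56 were tested, 22 fell and 14 rose in edgeR, with a median log2 fold change of -0.20, against 0.00 for all genes tested. That makes 36 calls in a background of 51.8%. The rises include FST, which passed the filter only through the knockdown libraries. The count of rises varied with the library left out: 8, 15 and 10 without knockdown replicate 1, 2 or 3, and 20, 7 and 8 without control replicate 1, 2 or 3. Over all genes tested, those called higher ran from 2440 to 3504 in the same fits, against 3284 with all libraries. The count of falls stayed between 18 and 23 when each library was left out. Genes called lower over all those tested ran from 2308 to 3465 in these fits, against 3088 with all libraries.

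Among 13 further ligands, 5 were tested, 2 fell and 0 rose, with a median of -0.17. Over all genes tested, 25.1% fell and 26.7% rose. BMP5 and BMP8A, with log2 fold changes of 0.46 and 0.66, were 2 ligands past an unadjusted p of 0.05 in edgeR, and 1 of them, BMP5, was called higher by both DESeq2 and limma-voom. BMP6, the BMP ligand with the highest FPKM, fell by 1.19 on the log2 scale (SE 0.10, adjusted p = 9.22e-05), with 68.3 ± 6.84 CPM in knockdown and 156 ± 4.52 CPM in control libraries (SD, n = 3 each). BMP7 fell by 1.54 (SE 0.14, adjusted p = 0.000147 in edgeR). BMP2, which shares receptors with BMP4, had at most 9 counts in any library and was not tested. Per length, BMP4 at 3.19 ± 0.541 FPKM thus remained below BMP6 at 18.5 ± 1.02 FPKM in the knockdown libraries (SD, n = 3 each).

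Of 11 further receptors and co-receptors, 8 were tested, 2 fell and 3 rose, with a median of 0.18. The shares over all genes tested were 25.1% for falls and 26.7% for rises. The type I receptor BMPR1B fell most: it had 33, 21 and 28 counts in the knockdown replicates and 329, 251 and 258 counts in the control replicates. That is a log2 fold change of -3.61 (SE 0.18, adjusted p = 1.10e-05 in edgeR). Among the other type I receptors, BMPR1A stood at 0.23, ACVR1 stood at -0.19 and was not called (adjusted p = 0.0726 in edgeR), and ACVRL1 was too low to be tested. The co-receptor endoglin, ENG, fell by 0.98 on the log2 scale (adjusted p = 0.000597), and the co-receptor betaglycan, TGFBR3, rose by 1.44 (adjusted p = 0.00113), both in edgeR. The activin and BMP type II receptor ACVR2A rose by 0.61 (adjusted p = 0.015 in edgeR), a call lost without knockdown replicate 1 or control replicate 2 or 3 (adjusted p from 0.0566 to 0.0595). BMPR2, the main type II receptor, had 181 ± 31.2 CPM in knockdown and 142 ± 16.9 CPM in control libraries (SD, n = 3 each) and was not called (adjusted p = 0.0739 in edgeR).

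Of 17 secreted antagonists and modulators, 7 were tested, 2 fell and 2 rose, with a median of -0.20. Among all genes tested, 25.1% fell and 26.7% rose. NOG, which encodes noggin and traps BMP2 and BMP4, fell to 6.66 ± 0.995 CPM in knockdown libraries, against 17.4 ± 1.18 CPM in control libraries (SD, n = 3 each). Its log2 fold change was -1.38 (SE 0.14, adjusted p = 0.000256 in edgeR). FST, the activin and BMP binder follistatin, had 31, 18 and 38 counts in the knockdown replicates and 2, 0 and 3 counts in the control replicates. Its log2 fold change of 3.77 (SE 0.57 in edgeR) rests on those few control counts, and was 4.43 without control replicate 3. FST passed the filter only through the knockdown libraries, so no p-value is given and nothing is read from its call. That call is included in the 2 rises of this list and in the 14 rises over all lists. TWSG1 rose by 0.35 and FSTL3 fell by 0.67 (adjusted p = 0.0228 and 0.0415 in edgeR). The TWSG1 call was lost without knockdown replicate 1 or 3 or control replicate 2 or 3, and the FSTL3 call without knockdown replicate 1 or 2 or control replicate 2 or 3 (adjusted p from 0.0674 to 0.135). The FSTL3 call was also lost with scaling by library size alone (adjusted p = 0.0866 in edgeR).

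Of 14 SMAD transducers and regulators, 13 were tested, 3 fell and 5 rose, with a median of 0.00, where 25.1% of all genes tested fell and 26.7% rose. Among the rises, SKIL and PPM1A each lost their call in 4 of the fits with single libraries left out. SMAD3 and TGIF1 each lost theirs in 2. SMAD1 and SMAD5, which carry the BMP signal beside SMAD9, had log2 fold changes of 0.00 (SE 0.14) and 0.21 (SE 0.09), and their shared partner SMAD4 had -0.25 (SE 0.14). None of these 3 was called (adjusted p = 0.998, 0.0877 and 0.167 in edgeR), and SMAD5 and SMAD4 were called without both libraries that stood apart. SMAD2, of the TGF-beta and activin branch, rose by 0.79 (SE 0.09, adjusted p = 0.000323 in edgeR). The ubiquitin ligases SMURF2 and SMURF1, which mark SMADs and receptors for degradation, fell by 0.94 and 0.39, and the ubiquitin ligase STUB1 fell by 0.56 (adjusted p = 0.00108, 0.00935 and 0.00568 in edgeR).

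Of 16 ID-binding and tissue bHLH genes, 11 were too low to be tested. Of the 5 tested, 2 fell and 1 rose, with a median of -0.04, where 25.1% of all genes tested fell and 26.7% rose. The E protein genes TCF3 and TCF12 had log2 fold changes of -0.29 (SE 0.09) and -0.05 (SE 0.15). TCF3 passed (adjusted p = 0.031 in edgeR), but not without knockdown replicate 1 or 3 or control replicate 2 or 3 (0.0735 to 0.13), nor with scaling by library size alone (0.0664). TCF4 had at most 15 counts in any library and was not tested. BHLHE41, a bHLH repressor of the circadian clock, rose to 35.9 ± 8.83 CPM in knockdown libraries, against 1.63 ± 0.214 CPM in control libraries (SD, n = 3 each, log2 fold change 4.46, adjusted p = 1.36e-05 in edgeR). Its paralog BHLHE40 fell by 0.35 (adjusted p = 0.0109 in edgeR).

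Genes that answer to BMP in other cells gave 7 falls and 2 rises among 11 tested of 15, with a median of -0.69. The shares over all genes tested were 25.1% for falls and 26.7% for rises. The fall of HEY1 lost its call in 5 and the rise of RUNX2 in 3 of the fits with single libraries left out (adjusted p from 0.0574 to 0.125 in edgeR). HEY1 was also not called by DESeq2 (adjusted p = 0.0502) or with scaling by library size alone (0.0836 in edgeR). The homeobox gene DLX2 fell by 1.80, the bHLH gene ATOH8 by 1.61 and the zinc finger gene GATA2 by 0.85 on the log2 scale (adjusted p = 0.00059, 0.00051 and 0.000865 in edgeR). The homeobox gene MSX2 rose by 1.49 (SE 0.15, adjusted p = 0.000198 in edgeR), with 12.9 ± 1.41 CPM in knockdown and 4.57 ± 0.414 CPM in control libraries (SD, n = 3 each). Its paralog MSX1, named after its value was seen, fell by 1.39 (SE 0.22, adjusted p = 0.00154 in edgeR), so that this pair of BMP-responsive genes moved in opposite directions.

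Of 10 genes tied to ID proteins in the cell cycle or to their transcription, 7 were tested. Of these, 4 fell and 1 rose, with a median of -0.62, where 25.1% of all genes tested fell and 26.7% rose. CDKN1A, a kinase inhibitor that E proteins can activate and ID proteins can restrain, fell by 1.70 (SE 0.10), and the cyclin CCND1 fell by 0.99 (SE 0.08). MYC, which can activate ID2, fell by 0.87 (SE 0.10). ATF3, a stress factor known to repress ID1 together with SMAD3, rose by 1.21 (SE 0.25), with 22.8 ± 4.59 CPM in knockdown and 9.84 ± 3.08 CPM in control libraries (SD, n = 3 each). The adjusted p values were 1.96e-05, 8.84e-05, 0.000357 and 0.00547 for CDKN1A, CCND1, MYC and ATF3 in edgeR. CDKN2A and CDKN2B were listed at 0 counts in all libraries.

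**Figure D5:**
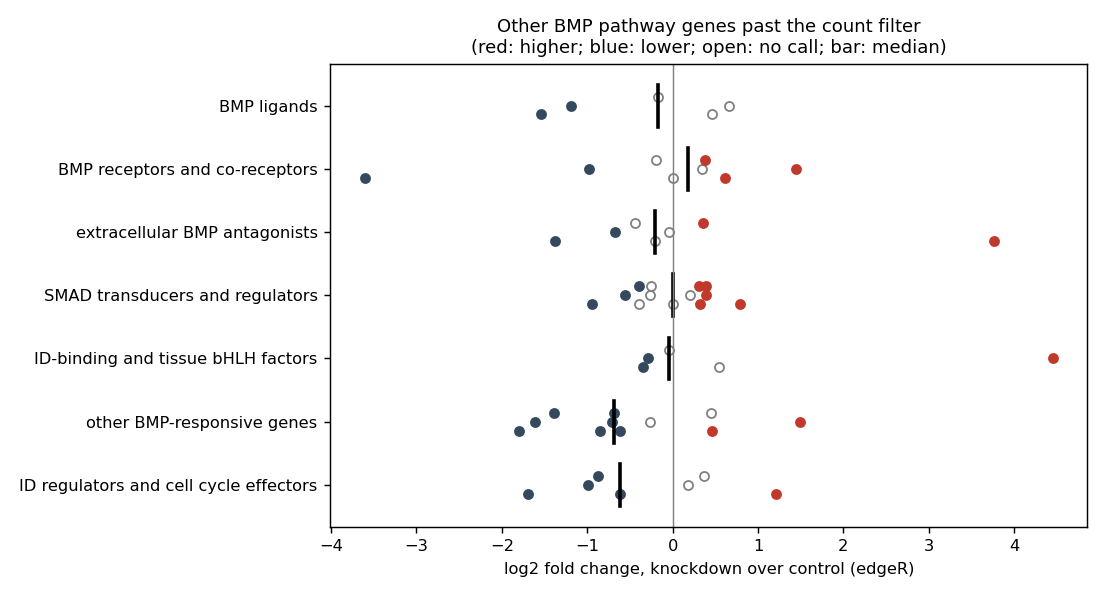
Log2 fold change (knockdown over control, edgeR) of the 56 tested genes of the 7 pathway lists, with red for genes called higher, blue for genes called lower and open circles for no call. The black bar is each list's median, which is lowest for the other BMP-responsive genes (-0.69).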

How the data were processed

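The authors deposited read counts and FPKM per Ensembl gene for the 6 libraries, per the file headers. Per the labels' protocols, TRIzol RNA and the NEBNext Ultra II RNA kit were used. No aligner, counter, genome build or use of strand is named there or elsewhere in the sources used here. Gene spans are printed as the table gives them, and 6 of the 10 members share a start or end with GENCODE 29 (GRCh38). All deposited FPKM values above 0 equal count over length over column total to 0.1%.

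The main test was that of edgeR 4.0.16 under R 4.3.3 (filterByExpr, TMM factors, quasi-likelihood F-test, no covariates, Benjamini-Hochberg adjustment over 12292 genes, threshold 0.05). Levels are TMM-scaled CPM. Each SE of a log2 fold change was back-calculated as its absolute value over the square root of the F statistic, so it comes from the same test. Ratios of summed counts carry exact 95% binomial intervals. Alternatives were other scaling, no filter, DESeq2 1.42.0, limma-voom (limma 3.58.1), a replicate block, a threshold of 0.01 and libraries left out. The members and lists were chosen with earlier results of these data known. The rule for names took up to 4 called genes per list by adjusted p, the 5 most alike and the 3 nearest neighbours per side of ID2 and ID3. Other genes were named after their values were seen: ACVR1, ACVRL1, BMP2, BMP5, BMP8A, BMPR2, SMAD1, SMAD3, SMAD4, SMAD5, SKIL, TGIF1, PPM1A, TCF4, TCF12, HEY1, RUNX2, MSX1, CDKN2A and CDKN2B. Promoter sequences are from RefSeq, where the symbols of all 4 ID genes matched; RefSeq starts can differ from the deposited spans.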

Additional observations from a re-analysis of the deposited data

How the results depend on the processing

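Directions of the 8 tested members held in all settings. Members called lower numbered 3 with all libraries and 3 to 5 with each library left out, and those called higher 1 and 1 to 2. With both libraries that stood apart left out (control replicate 1, knockdown replicate 2), 6 of the 10 genes were lower and 2 higher. The 6 were ID1, ID2, ID3, ID4, SMAD7 and SMAD9, and the 2 were BMP4 and BMPR1A. SMAD6 was not called. In that setting 73.6% of the 12415 genes tested were called. Scaling by library size alone gave 2 higher, and the cause of these shifts was not tested. ID4 was called lower with no filter, without both libraries that stood apart, or without knockdown replicate 1, 2 or 3 or control replicate 1. Where a filter was used, ID4 passed it only through the control libraries. Nothing is therefore read from its calls or from the member counts that include it. Calls over all genes numbered 4748 to 6784 with each library left out (6372 with all), 9135 without both libraries and 4166 at a threshold of 0.01, where 6 other pathway genes were higher. Other pathway genes called higher numbered 7 to 20 with each library left out. KIDINS220 reversed to 0.20 without both libraries. With the replicate number as a block, 5444 genes were called; same-numbered libraries correlated at -0.36, -0.34 and 0.37 in their deviations from group means, so the numbers do not pair them. Knockdown replicate 2 and control replicate 1 correlated at 0.49, and knockdown replicates 1 and 3 with control replicates 2 and 3 at 0.25 to 0.37. The replicate block called 3 members lower and 1 higher, and 21 other pathway genes lower and 12 higher. Among named genes the block ended the calls of TCF3, HEY1, RUNX2 and SMAD3 (adjusted p = 0.0807, 0.0849, 0.0601 and 0.0556 in edgeR). Depth limits ID4 and BAMBI, and control BMP4 and FST.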
